A study of Homo sapiens with 24 samples.

Results

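The 10 genes described here are CCR7, LRRK2, MVP, ST8SIA4, SERPINB1, PDGFD, CD1C, SGK1, C11orf54 and LRFN4. They were selected on the deposited 48 h values of siRNA and control libraries of a MYC knockdown study, among the strongest differences, so their siRNA differences are given as a description without a test. All 10 have a row in both deposited tables, which hold 61541 genes at 48 h and 19836 genes at 72 h, and all 10 passed the filter on low values in each table. In siRNA, 8 of them had higher and 2, C11orf54 and LRFN4, had lower values than in every control library. With PNA2, CCR7 was the gene of the 10 that passed the test as higher than control at both 48 h and 72 h. The 48 h test shares its controls with the choice of the genes. The call was lost in 3 of 25 alternatives at 48 h and in 3 of 16 at 72 h. At 72 h, 23.8% of all genes tested were called in either direction.

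The cells were of the human line U2932, from a diffuse large B-cell lymphoma, with bone marrow as the labelled tissue. RNA sequencing compared cells treated with phosphate-buffered saline (PBS; 6 libraries at 48 h and 5 at 72 h, genotype entered as WT) with cells given nucleic acid reagents against MYC, whose genotype is entered as cmyc knockdown. PNA2 belongs to the gamma peptide nucleic acids, which carry bases on an amide backbone and pair with nucleic acid strands. It was added at a labelled dose of 8 mM, a unit that is doubtful, to 4 libraries at 48 h and 5 at 72 h. The siRNA (500 nM, 4 libraries at 48 h) was delivered by electroporation into cells handled at another scale than the PNA2 cultures. No electroporated control is named, so siRNA and electroporation cannot be told apart. For siRNA replicates 1 to 4 the line is entered as U2933, U2934, U2935 and U2936, while their protocol names U2932. The labels do not say that replicates were separate cultures, so p-values measure the spread between these libraries, which may be technical. The extraction text names 48 h alone, also for the libraries labelled 72 h.

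MYC is a transcription factor that pairs with MAX, binds E-box sequences such as CACGTG, and drives growth and ribosome production; with MIZ1 it is also known to repress genes. In B cells it is induced in germinal centre selection, and it is often highly expressed in aggressive B-cell lymphoma. Several of the genes that were higher in siRNA have known roles in lymphocyte traffic or antigen display. CCR7 is the receptor for the chemokines CCL19 and CCL21 and guides cells to the T-cell zone of lymph nodes. ST8SIA4 builds polysialic acid, a modification that CCR7 itself can carry, and CD1C presents lipid antigens to T cells.

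In units of 1000000, deposited values summed to 11.12 to 16.17 per library at 48 h, without scaling to depth, and recovered reads to 8.22 to 13.69 at 72 h. Tied values divide the 48 h libraries into adjustment set A (controls 1, 2 and 4, PNA2 1 and 2, siRNA 1 to 4) and set B (control 3, the controls of columns 6 and 7, PNA2 3 and 4). The labels name no such sets. MYC was 3861 to 4252 in the siRNA libraries at 48 h, below the 4712 to 7083 of the 6 controls, a log2 difference of -0.82 with scaling to depth. The 4 PNA2 libraries held 7536 to 9687, a difference of 0.24 that was not called (limma adjusted p = 0.114). At 72 h MYC ran from 460 to 2032 with PNA2 and from 826 to 2845 in controls (-0.18, limma adjusted p = 0.794). All 8 B-cell markers were present, at 1910 to 3320 per 1000000 in sum in any library. In siRNA 5 of the 8 were called higher and 0 lower, where 8.73% of all genes tested were higher and 8.59% lower. With PNA2 1 was higher and 1 lower at 48 h (8.15% and 8.1% of all genes), and 2 and 1 at 72 h (12.1% and 11.7%). The T and NK markers summed to at most 5.23 and the 9 myeloid and dendritic markers to at most 4.46 per 1000000. CD8A, the one T and NK marker tested at 48 h, was called higher in siRNA (2.15, limma adjusted p = 0.0485) and with PNA2 (2.12, 0.0337). Its mean deposited values were low, 8.26 in controls, 13.9 in siRNA and 32.8 with PNA2, so the fitted differences are not ratios of reads. The 8 stroma and epithelium markers, led by EPCAM, summed at 48 h to 20.5 to 22.7 per 1000000 in siRNA, 13.7 to 19.6 in controls and 15.6 to 32.2 with PNA2, and to 11.3 to 15.9 at 72 h, and erythroid and megakaryocyte markers to at most 0.828. The part of these markers in the results was not tested. CLEC10A and FCER1A, which mark CD1C-bearing dendritic cells, were below a mean of 1 in every group.

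At 48 h the level of a gene within a set cannot be read as a number of reads. The values of each of the 10 genes lie on an even ladder within a set, with a step of 0.83 to 0.838 per rung in set A and 1.44 to 3.68 in set B. A rung is the largest even step that fits, so it can hold several reads. For MVP in set B the step was 3.68, against 1.84 for SERPINB1, PDGFD, CD1C and SGK1 there. Where a rung is a read, the differences in reads between libraries of a set are known. The value at which a library would hold 0 reads is not. The mean over all libraries of set B also lies close to that of set A for each gene, from 6.6% below it for SERPINB1 to 21.0% above it for LRFN4, although set B has no siRNA library. Ratios and log2 differences at 48 h therefore depend on how the sets are joined. They are given below from the fit over both sets, with values from set A alone, from aligning the sets on their controls, and against the set B controls.

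Limma called 2438 of 14070 genes (17.3%) different between siRNA and control at an adjusted p below 0.05, 8.73% higher and 8.59% lower. Without rescaling of depth, 96.6% of calls were higher in siRNA in place of 50.4%, and the median of all genes moved from -0.01 to 0.22 on the log2 scale. The 10 genes kept their directions there. In the deposited values 10.6% of genes did not overlap between the siRNA libraries and all 6 controls, 10% above and 0.576% below. All 10 genes were of this kind, which is what they were picked for and is no result. Within set A alone the share was 25% of genes, 23.2% above and 1.85% below, again with all 10 genes. By absolute log2 difference SGK1 ranked 2, CD1C 19, LRRK2 64, CCR7 173 and MVP 177 among the 14070 genes. ST8SIA4 ranked 430, LRFN4 482, C11orf54 495, PDGFD 608 and SERPINB1 708.

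**Figure D1:**
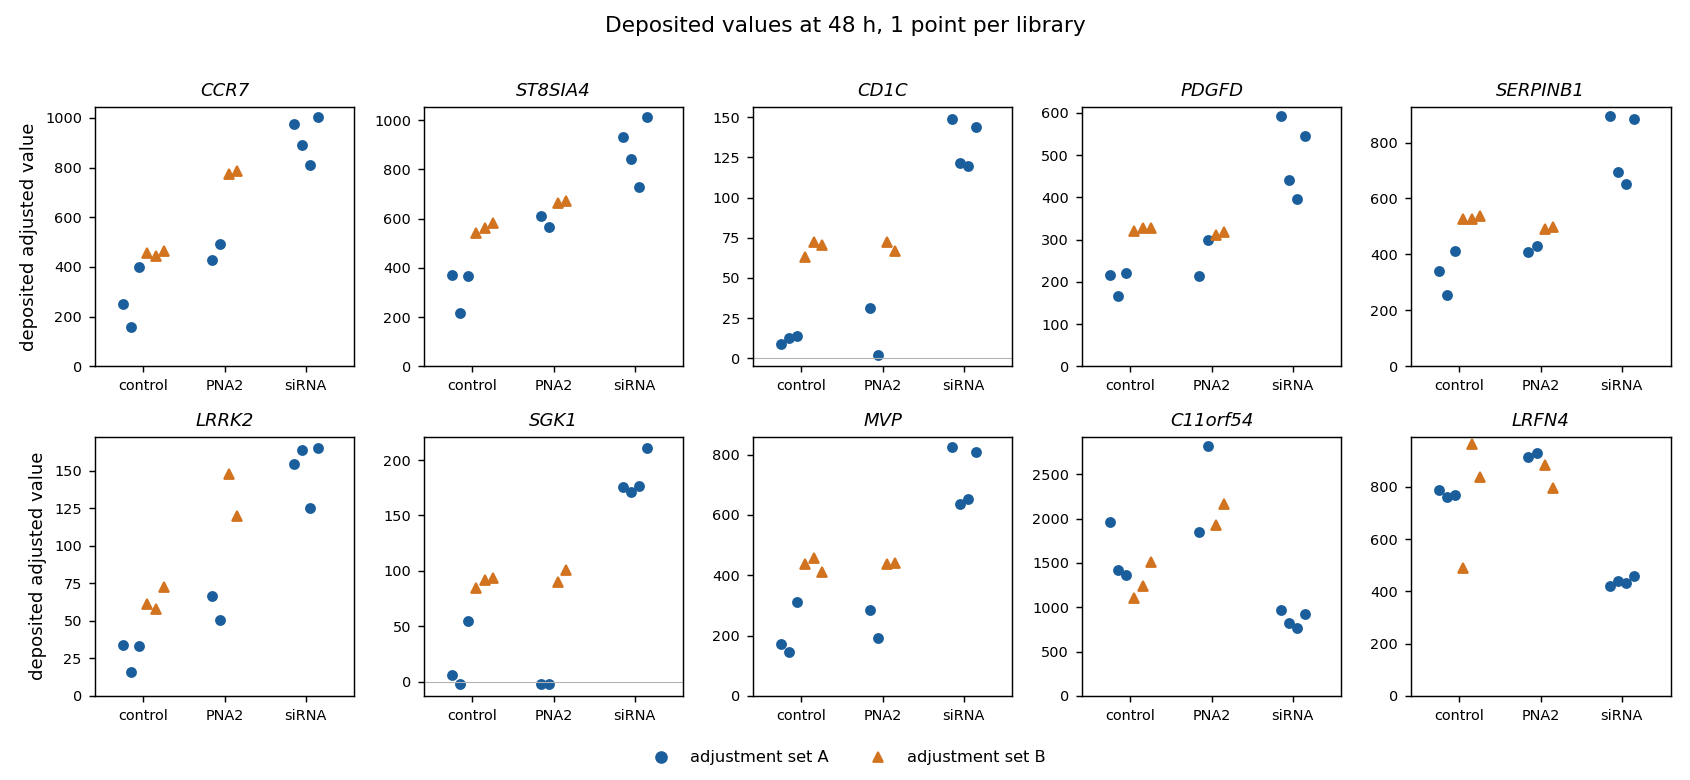
Deposited adjusted values of the 10 genes at 48 h (vertical axis, each gene on its own scale) in control, PNA2 and siRNA libraries, 1 point per library, with circles for set A and triangles for set B. For every gene the 4 siRNA points lie beyond all 6 control points, and for SGK1 and CD1C the set A controls lie far below the set B controls.

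CCR7 held values of 975, 892, 809 and 1002 in siRNA replicates 1 to 4. The controls of the same set held 249, 160 and 398 (replicates 1, 2 and 4), and those of set B held 446 to 465. Every siRNA library lay above every control, by the widest margin over control 2. The log2 difference was 1.61 (SE 0.15) over both sets, 1.63 in set A, 1.39 with the sets aligned on their controls and 0.85 against the set B controls. On the ladder of set A, siRNA libraries stood 778 reads above the controls on average. The gene (ENSG00000126353) lies on chromosome 17 at 40553769 to 40565472, reverse strand, in GENCODE 29 (GRCh38).

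ST8SIA4, the polysialyltransferase, held 931, 841, 728 and 1013 in the siRNA libraries against 370, 216 and 367 in the set A controls and 541 to 581 in the set B controls. Its log2 difference was 1.13 (SE 0.12), 1.27 in set A, 0.93 with the sets aligned and 0.47 against set B controls. The gene spans 100806935 to 100903266 on chromosome 5, reverse strand.

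CD1C held 149, 122, 120 and 144 in the siRNA libraries and 9.07, 12.4 and 14.1 in the set A controls, but 63.3 to 72.5 in the set B controls. Those set B controls lay within 5 rungs of one another, so their level is not a measure of reads. CD1C differed by 3.23 on the log2 scale (SE 0.46) over both sets and by 3.18 in set A, against 1.78 with the sets aligned and 0.78 against the set B controls. Whatever the unknown offset, mean reads in siRNA can be at most 13.9 times those of the set A controls, since the ratio of rungs above the lowest library is an upper limit. CD1C lies at 158289786 to 158293630 on chromosome 1, forward strand. Beside it, the dendritic markers CLEC10A and FCER1A stayed below a mean of 1, and the myeloid and dendritic list summed to 1.41 to 1.91 per 1000000 in siRNA and 0.621 to 1.78 in controls. In siRNA 6 of the 9 markers were below a mean of 1, and LAMP3, found in mature dendritic cells, was the highest at a mean of 11.7, with a log2 difference of 0.94 that was not called (limma adjusted p = 0.206).

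PDGFD, a secreted growth factor that is activated by proteolysis and binds the receptor PDGFRB, held 593, 442, 397 and 544 in siRNA against 217, 167 and 220 in the set A controls and 321 to 328 in the set B controls. Its log2 difference was 0.97 (SE 0.10), 1.05 in set A, 0.81 with the sets aligned and 0.42 against set B controls. SERPINB1 encodes an intracellular inhibitor of neutrophil elastase, cathepsin G and proteinase 3. It held 895, 694, 652 and 885 in siRNA against 340, 256 and 411 in the set A controls and 525 to 536 in the set B controls, a log2 difference of 0.91 (SE 0.10), 1 in set A, 0.75 with the sets aligned and 0.39 against set B controls. In both genes siRNA replicates 1 and 4 were the higher pair, and these are also the siRNA libraries with the larger deposited sums, 16.17 and 16.00 against 13.55 and 12.63 in units of 1000000. PDGFD lies at 103907186 to 104164379 on chromosome 11 and SERPINB1 at 2832332 to 2842006 on chromosome 6, both on the reverse strand.

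Both kinases of the set were low in the set A controls. LRRK2, a large kinase that phosphorylates Rab GTPases and is mutated in familial Parkinson disease, held 155, 164, 125 and 165 in siRNA. The set A controls held 33.82, 16.22 and 32.99 and the set B controls 58.1 to 72.8. LRRK2 differed by 2.24 on the log2 scale (SE 0.19), 2.26 in set A, 1.82 with the sets aligned and 1.07 against set B controls. LRRK2 spans 40196744 to 40369285 on chromosome 12, forward strand.

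SGK1, a kinase downstream of PI3K and mTORC2 that is induced by serum and glucocorticoids, held 176, 171, 176 and 211 in siRNA. The set A controls held 6.34, -1.995 and 54.7, with control 2 tied at the lowest value of the set with PNA2 replicates 1 and 2. The set B controls held 84.7 to 93.9 and lay within 5 rungs of each other. The fitted log2 difference of 5.07 (SE 0.87) was 4.52 in set A, 2.04 with the sets aligned, 0.85 against set B controls, 4.24 without control replicate 2 and 6.38 without control replicate 4. The fitted fold of 33.7 is one of means of log2(value + 1) with values below 0 set to 0, and it is not a ratio of reads. On the ladder of set A the siRNA libraries stood 208 to 255 rungs above the lowest library and the controls 0 to 68, so the ratio of arithmetic mean reads, another measure, can be at most 8.56. A fixed difference of 196 reads on average holds whatever the offset. SGK1 spans 134169246 to 134318112 on chromosome 6, reverse strand.

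MVP, the main protein of the vault ribonucleoprotein particle, held 826, 637, 653 and 808 in siRNA against 171, 146 and 311 in the set A controls and 412 to 456 in the set B controls. The log2 difference was 1.59 (SE 0.17), 1.64 in set A, 1.2 with the sets aligned and 0.58 against set B controls. As in PDGFD and SERPINB1, and in CCR7, ST8SIA4, CD1C and C11orf54, siRNA replicates 1 and 4 had the higher deposited values. Scaled to depth, MVP held 695, 642, 704 and 681 in siRNA replicates 1 to 4, with replicate 3 the highest. MVP lies at 29820394 to 29848039 on chromosome 16, forward strand.

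**Figure D2:**
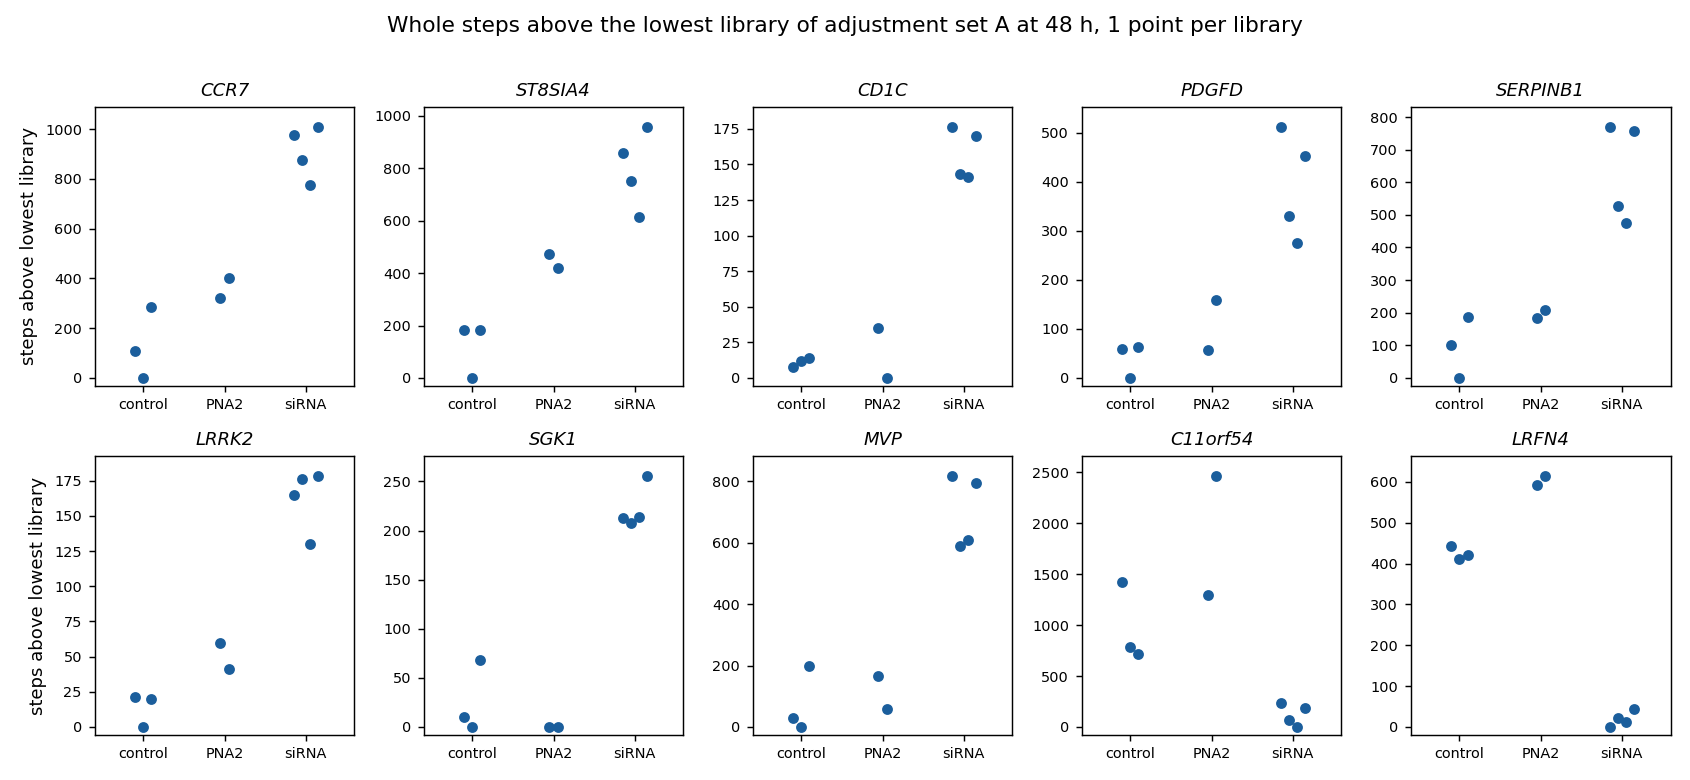
Whole rungs of each gene's ladder above the lowest library of set A at 48 h (vertical axis, own scale per gene; 1 rung is taken as 1 read), 1 point per library. SGK1 has 3 libraries at 0, siRNA libraries at 208 to 255 and 1 control at 68, and in C11orf54 and LRFN4 the siRNA libraries are the lowest.

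LRFN4 and C11orf54 were the genes of the 10 that were lower in siRNA. LRFN4, a leucine-rich repeat adhesion protein known from synapses, held 422, 441, 431 and 459 in siRNA. The controls held 789, 762 and 771 in set A and 490, 966 and 839 in set B, where control 3 (490) lay nearest to the siRNA libraries. On the log2 scale LRFN4 differed by -1.07 (SE 0.14), -1.05 in set A, -1.15 with the sets aligned and -0.91 against set B controls. This was the narrowest range over the ways of joining the sets among the 10 genes, but the offset stays unknown in each of them. By rungs in set A, mean reads in the controls can be at most 21.7 times those in siRNA. This upper limit was the widest of the 10 genes, the others lying at 6.53 to 13.9. LRFN4 lies at 66856647 to 66860475 on chromosome 11, forward strand, and shares 387 exon bases with PC on the opposite strand, whose mean value was 4.53.

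C11orf54 held 966, 827, 767 and 920 in siRNA against 1958, 1424 and 1364 in the set A controls and 1104, 1237 and 1507 in the set B controls. The log2 difference was -1.06 (SE 0.12), -1.08 in set A, -1.33 with the sets aligned and -0.71 against set B controls. The gene lies at 93741591 to 93764749 on chromosome 11, forward strand. It shares 138 exon bases with TAF1D on the opposite strand, which had a mean value of 1450, and the sources used here do not state whether counting used strand, so part of its reads is uncertain.

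Since MYC binds E-boxes, the 250 bases before the transcription start were searched for CACGTG, and for the looser CANNTG that contains it, in the RefSeq promoter table (GRCh38.p14), both motifs reading the same on either strand. Of the 10 genes 9 matched, with 14 start sites; CCR7 did not match. CACGTG was in 1 of the 14 windows, that of LRFN4, at bases -28 to -23 from the start, and in 6.34% of the 35116 windows of the whole table. CANNTG was in 9 of the 14 windows and in 61.8% of all. A match is a description of letters, not of a bound site. The windows of 3 genes show the range: LRFN4, with CACGTG and 83.2% GC; MVP, with 6 CANNTG matches; and LRRK2, with 0. Capitals mark CANNTG, each sequence runs 5′ to 3′ on the gene's strand, and the positions are chr11:66856814-66857063, chr16:29820144-29820393 and chr12:40224747-40224996.
LRFN4: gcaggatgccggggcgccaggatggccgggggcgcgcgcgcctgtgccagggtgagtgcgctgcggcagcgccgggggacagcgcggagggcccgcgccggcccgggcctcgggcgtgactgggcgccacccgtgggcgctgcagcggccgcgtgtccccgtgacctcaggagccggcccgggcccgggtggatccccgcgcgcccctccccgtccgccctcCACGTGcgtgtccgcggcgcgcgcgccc
MVP: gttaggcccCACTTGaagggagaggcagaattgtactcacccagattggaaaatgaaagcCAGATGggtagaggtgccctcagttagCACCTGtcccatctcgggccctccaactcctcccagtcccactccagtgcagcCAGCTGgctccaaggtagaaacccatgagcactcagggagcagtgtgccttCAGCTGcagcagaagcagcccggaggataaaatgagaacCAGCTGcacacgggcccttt
LRRK2: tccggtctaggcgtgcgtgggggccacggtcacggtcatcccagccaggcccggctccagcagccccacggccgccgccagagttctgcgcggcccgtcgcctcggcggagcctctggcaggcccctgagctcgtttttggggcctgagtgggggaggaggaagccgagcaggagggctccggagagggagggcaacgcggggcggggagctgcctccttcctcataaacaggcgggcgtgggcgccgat
The LRFN4 and LRRK2 windows lie inside these genes as GENCODE 29 draws them, which begin farther upstream.

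**Figure D3:**
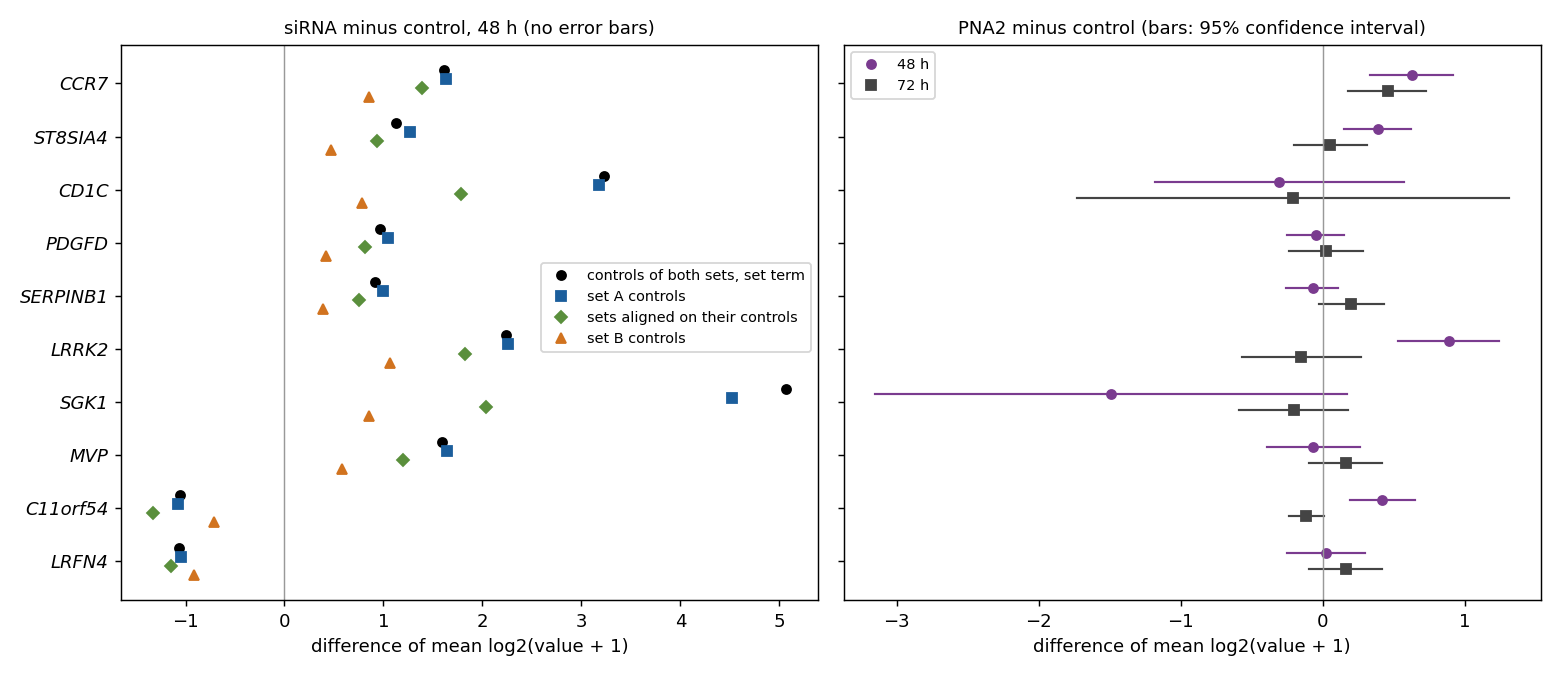
Differences of mean log2(value + 1) for the 10 genes, at left siRNA minus control at 48 h under 4 ways of joining the sets and at right PNA2 minus control at 48 h and 72 h with 95% confidence intervals. SGK1 ranges from 0.85 to 5.07 at left, LRFN4 from -1.15 to -0.91, and at right CCR7 has both intervals above 0.

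PNA2 at 48 h was compared with the same 6 controls that took part in choosing the genes, so the comparisons share those libraries and their values are given side by side. Low controls in genes chosen as higher in siRNA would also raise the PNA2 difference, and the adjusted p-values do not allow for this. Limma called 16.2% of the 14070 genes, 8.15% higher and 8.1% lower with rescaling of depth. Without it 92.3% of calls were higher, in place of 50.2%, and the median of all genes was 0.19. Of the 10 genes, 4 were called higher (CCR7, LRRK2, ST8SIA4 and C11orf54), 0 lower and 6 not called. C11orf54 was lower in siRNA and higher with PNA2.

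CCR7 held 430 and 494 in PNA2 replicates 1 and 2 (set A) and 773 and 785 in replicates 3 and 4 (set B), above the controls of the same set in both. The log2 difference, on values scaled to depth, was 0.63 (SE 0.14, limma adjusted p = 0.00775), 0.62 in set A (adjusted p = 0.101) and 0.64 in set B (adjusted p = 0.00117). After this scaling PNA2 replicate 1 (410) lay below control replicate 4 (426) of the same set. Set B has no siRNA library, but its controls took part in the choice of the genes. There the controls lay within 11 rungs of each other and the PNA2 libraries 194 and 201 rungs above the lowest. The adjusted p ran from 0.000183 to 0.101 over the alternatives.

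LRRK2 held 66.5 and 50.6 with PNA2 in set A and 148 and 120 in set B, again above the controls of the same set. On the log2 scale the difference was 0.89 (SE 0.17, limma adjusted p = 0.00296), 0.86 in set A and 0.92 in set B, with adjusted p from 0.000796 to 0.0828 over the alternatives. In set B the PNA2 libraries stood 38 and 55 rungs above the lowest control, and the controls 0 to 9.

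ST8SIA4 held 610 and 565 in set A and 663 and 670 in set B with PNA2. Its difference of 0.39 (SE 0.11, limma adjusted p = 0.0267) was 0.67 in set A and 0.11 in set B (adjusted p = 0.496). It did not pass with control replicate 1 left out (adjusted p = 0.0501) or PNA2 replicate 1 left out (0.0778), in a range from 0.0143 to 0.496 over the alternatives. C11orf54 held 1852 and 2824 in set A and 1933 and 2163 in set B, and overlapped the set A controls through control 1 (1958). Its difference of 0.42 (SE 0.11, limma adjusted p = 0.0185) was 0.29 in set A (adjusted p = 0.214) and 0.55 in set B (0.00238). It was lost without PNA2 replicate 4 (0.0554), and the alternatives ran from 0.00091 to 0.214.

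The other 6 genes were not called with PNA2 at 48 h. MVP (-0.07, 95% interval -0.39 to 0.26), SERPINB1 (-0.07, -0.26 to 0.11), PDGFD (-0.05, -0.25 to 0.15) and LRFN4 (0.02, -0.25 to 0.30) had differences near 0. As the offset is unknown, this does not show equal reads. In set B PDGFD stood at 0 and 4 rungs with PNA2 and 5 to 9 in controls, and SERPINB1 at 0 and 5 against 19 to 25. MVP and LRFN4 overlapped their controls there. CD1C was at -0.31 with an interval from -1.18 to 0.57, its set A libraries being 31.6 and 2.40. SGK1 was at -1.49 (interval -3.15 to 0.17, adjusted p = 0.203), with both set A libraries tied at -1.995 and both set B libraries, 90.2 and 101, within 9 rungs of the lowest control. A test of the difference between sets called none of the 10 genes; the smallest adjusted p was 0.25, for ST8SIA4, and this limma test called 2 of 14070 genes.

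In the deposited values of set B, CCR7, LRRK2, ST8SIA4 and C11orf54 lay above all controls, as did 32.2% of all genes, and SERPINB1 and PDGFD below, as did 9.99% (42.2% in either direction). In set A, CCR7, LRRK2, ST8SIA4 and LRFN4 lay above, as did 33.1% of all genes, and none of the 10 below, where 3.29% of all genes lay (36.3% in either direction). Deposited sums, in 1000000, were 14.88 to 16.03 with PNA2 and 11.12 to 14.46 in controls.

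PNA2 at 72 h was measured in libraries that the choice of the genes did not use. Limma called 2849 of 11985 genes (23.8%), 12.1% higher and 11.7% lower. Of the 10 genes, 1 was called higher (CCR7), 0 lower and 9 were not called. CCR7 held 324, 277, 351, 234 and 279 normalized reads in PNA2 replicates 1 to 5 and 193, 255, 189, 208 and 217 in control replicates 1 to 5. Control 2 lay above PNA2 replicate 4, the pair at which the groups overlap. The means were 293 ± 45.3 and 212 ± 26.5 (SD, n = 5 each), a log2 difference of 0.46 (SE 0.13, 95% interval 0.18 to 0.73, limma adjusted p = 0.0224). The exact two-sided permutation test gave p = 0.0159, where the design allows no p below 0.00794. The limma test did not pass with control replicate 1 (adjusted p = 0.0557), control replicate 3 (0.0552) or PNA2 replicate 1 (0.0553) left out, in a range from 0.00553 to 0.0557, and the log2 difference stayed between 0.39 and 0.54.

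C11orf54 held 2247, 2529, 2357, 2558 and 2581 normalized reads with PNA2 and 2713, 2613, 2733, 2608 and 2618 in controls. All PNA2 libraries lay below all controls, as in 9.18% of the genes tested. The difference was small (-0.12, SE 0.06) and limma did not call it (adjusted p = 0.169), while the exact two-sided permutation test gave its smallest p, 0.00794. With the 10 genes tested this way the values were not adjusted. The direction differs from that of 48 h, where PNA2 libraries were higher.

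The remaining genes were not called at 72 h. SERPINB1 held 264 to 329 with PNA2 and 208 to 284 in controls, a difference of 0.20 (interval -0.03 to 0.43, exact permutation p = 0.0556). MVP (0.16, -0.10 to 0.42), LRFN4 (0.16, -0.10 to 0.42), ST8SIA4 (0.05, -0.20 to 0.31) and PDGFD (0.02, -0.24 to 0.28) had intervals that hold 0 and stay within 0.42 of it. LRRK2, higher with PNA2 at 48 h, was at -0.15 (-0.57 to 0.27), with 29.8 to 47.1 normalized reads against 32.9 to 47.2 in controls. SGK1 was at -0.20 (-0.59 to 0.18), with 41.6 to 79.8 against 64.2 to 79.7. CD1C rested on 2 to 29 reads per library and its interval ran from -1.73 to 1.31, so a difference inside that interval could not be told from 0 at this depth.

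**Figure D4:**
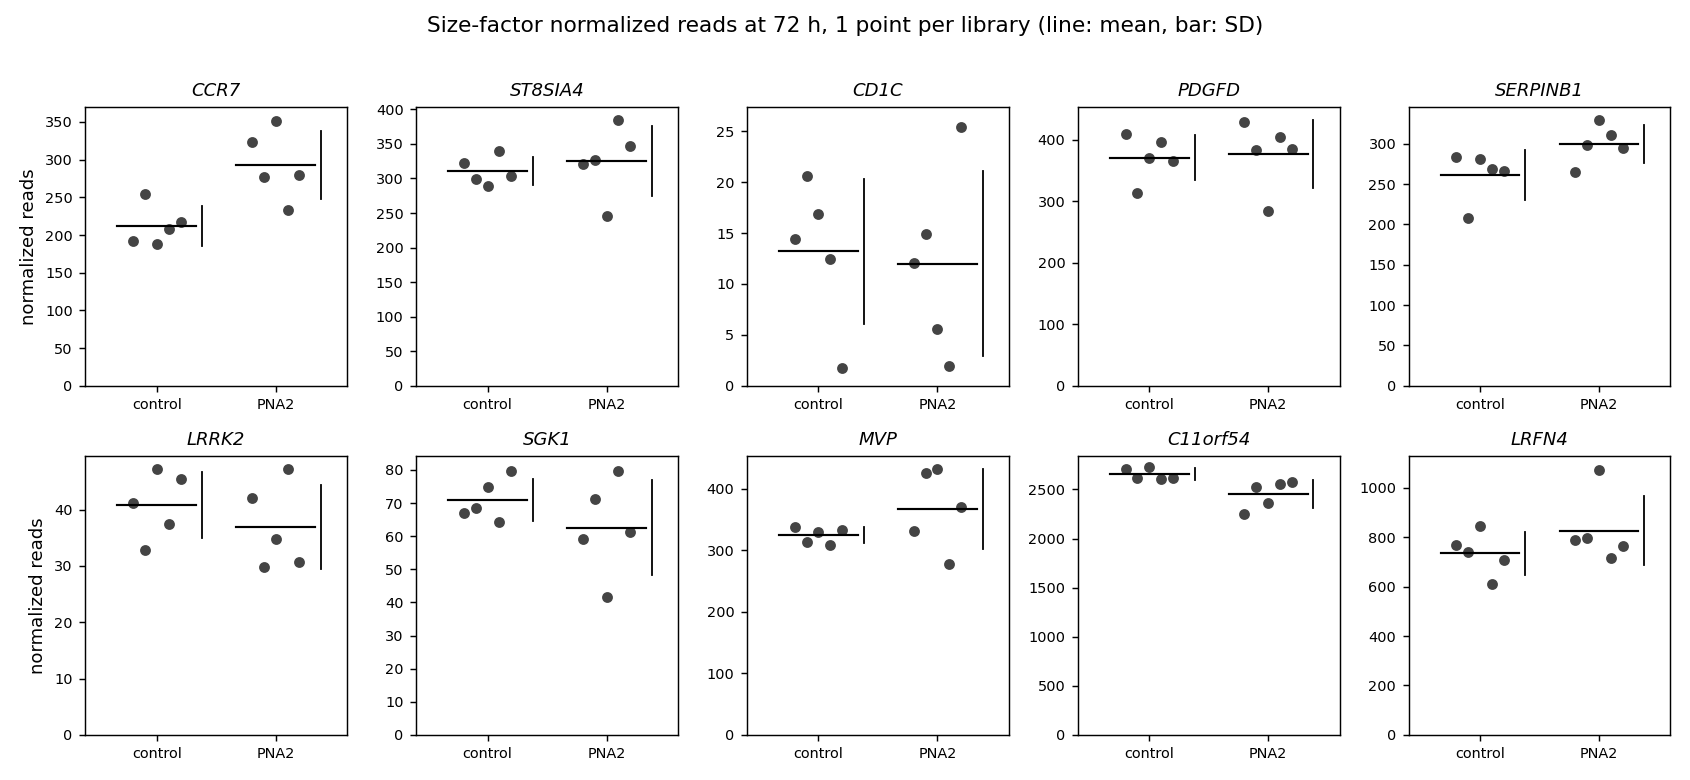
Normalized reads of the 10 genes at 72 h (vertical axis from 0, own scale per gene) in 5 control and 5 PNA2 libraries, 1 point each, with the mean as a line and the SD as a bar. CCR7 averages 293 with PNA2 and 212 in controls, and the 5 C11orf54 points of PNA2 lie below all controls.

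Per length, the genes span a wide range in control cells. In the 72 h controls C11orf54 had 38 ± 0.846 and LRFN4 23.2 ± 2.68 RPKM (reads per exon length and depth; SD, n = 5), at percentiles 94.2 and 89.4 of 19786 genes. PDGFD (7.79 ± 0.80), CCR7 (7.57 ± 0.919) and SERPINB1 (7.57 ± 0.909) followed and did not differ beyond their spread. MVP (4.73 ± 0.192) and ST8SIA4 (3.57 ± 0.244) did not overlap with each other or with the genes above. CD1C (0.822 ± 0.439), SGK1 (0.635 ± 0.0571) and LRRK2 (0.271 ± 0.0392) were lowest, with the range of CD1C, 0.107 to 1.27, covering both others.

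Gene groups around the members were counted with the members left out. Of 21 genes tested in the chemokine receptor and B-cell positioning group, the group of CCR7, 9 were called higher and 1 lower in siRNA, with a median log2 difference of 0.44 against -0.01 over all genes. Of all genes tested 8.73% were called higher and 8.59% lower there. RGS1, a brake on chemokine receptor signals (2.05, limma adjusted p = 0.0147), GPR183, the oxysterol receptor that positions B cells (1.65, 0.000395), CCL3 (1.45, 0.0155) and RGS13 (1.23, 0.000536) were the largest. RGS1 and CCL3 lost their call without control replicate 1 (0.0595 and 0.0598) or control replicate 2 (0.0546 and 0.0625), where 6 genes of the group were called higher, and 5 were without a set term. With PNA2 at 48 h 2 were higher and 3 lower (median 0), and at 72 h 6 of 22 were higher and 1 lower (median 0.09 against -0.01). The shares of all genes were 8.15% higher and 8.1% lower at 48 h, and 12.1% and 11.7% at 72 h. At 72 h the chemokine CCL22 fell (-1.13, limma adjusted p = 0.00045), and S1PR2 (0.48, 0.00526), GRK6 (0.40, 0.0191) and CXCR5 (0.38, 0.0133) rose.

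Of 12 genes of the NF-kB pathway, which is known to induce CCR7, 3 were higher and 0 lower in siRNA (ICAM1 0.91, BIRC3 0.97, TRAF1 0.58), while 5 were lower and 0 higher with PNA2 at 48 h, with a median of -0.48 against 0 over all genes. Those included BIRC3 (-0.87, limma adjusted p = 0.0335), TNFAIP3 (-0.79, 0.00242) and ICAM1 (-0.76, 0.00164). Over all genes 8.73% were called higher in siRNA and 8.1% lower with PNA2 at 48 h. BIRC3 lost its call in siRNA without control 2 (0.0644) or any single siRNA library (0.0568 to 0.0736), and with PNA2 without control 1, 2 or 4 (0.0652 to 0.0758). Without a set term 0 of the 12 were called in siRNA, and 1 without control 2 or any single siRNA library. TRAF1 lost its siRNA call without most single libraries (0.0502 to 0.107). At 72 h 2 were lower, TRAF1 (-0.40, 0.00299) and TNFAIP3 (-0.34, 0.00647), and 0 higher, where 11.7% of all genes were called lower. CCR7 was higher in all of these comparisons.

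Among 10 tested genes of CD1 and lipid antigen presentation, the group of CD1C, 4 were higher in siRNA, 4 with PNA2 at 48 h and 5 with PNA2 at 72 h, and 0 were lower in each, with medians of 0.30, 0.31 and 0.30. Of all genes tested 8.73%, 8.15% and 12.1% were called higher in these comparisons, with medians of -0.01, 0 and -0.01. The siRNA count was 7 without PNA2 replicate 2. B2M, the light chain of CD1 and MHC class I molecules, was called in all 3 comparisons (0.40, 0.39 and 0.19 on the log2 scale). CD1D, the relative that serves invariant NKT cells, was at 0.90 in siRNA (limma adjusted p = 0.0129). PSAP, the precursor of saposins that load lipids, was at 0.59 and 0.62 with PNA2 at 48 h and 72 h (limma adjusted p = 0.00861 and 0.000153), and NPC2, a lysosomal cholesterol carrier, at 0.75 at 72 h (0.00131). CD74 at 72 h (0.50) was at -0.03 under quantile normalization.

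Of 23 genes of the SGK, PI3K and FOXO group, 6 were higher and 2 lower in siRNA (median 0.07), 4 and 1 with PNA2 at 48 h (0.12), and 3 and 1 with PNA2 at 72 h (0.04), against 17.3%, 16.2% and 23.8% of all genes called in either direction. SGK3 (0.86), FOXO1 (0.59, limma adjusted p = 0.00217) and NEDD4L, a ubiquitin ligase that SGK1 phosphorylates (0.57, 0.00243), were higher in siRNA. SGK3 lost its call without control 2 (0.0667) or siRNA replicate 2 (0.0502). The glucocorticoid-induced gene TSC22D3 was at 3.49 in siRNA (0.0464), a call lost under most alternatives, and its difference was -0.78 against set B controls alone. At 72 h TSC22D3 was higher with PNA2 (1.04, 0.000204), as was KLF2 (0.64, 0.00225), while SGK1 was not called.

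The groups of the other genes were read against the 17.3% of all genes called in siRNA. In siRNA 3 of 20 genes of the LRRK2 kinase pathway were higher (RAB8B 0.48, DNAJC6 0.44, RAB29 0.43) and 0 lower. RAB29 lost its call without control 1, siRNA 1, 2 or 4 (limma adjusted p from 0.0532 to 0.0582). Of 17 sialic acid genes 1 was higher (ST6GAL1, 0.42), and of 2 vault genes 1 (PARP4, 0.30). Of 5 clade B serpins and granule proteases 1 was higher (SERPINB9, a granzyme B inhibitor, 1.05, limma adjusted p = 0.00456), and of 7 PDGF and VEGF genes 1 (PDGFA, 2.48, 0.00794, but 0.54 against set B controls). Of 9 LRFN and synaptic adhesion genes 2 were lower, LRFN1 (-0.88, 0.00248) and PTPRS (-0.46, not called without rescaling), and PTPRF was higher (0.87), a call lost without control 1 or 2 or siRNA 3 or 4 (0.0643 to 0.0792). At 72 h 2 of 8 were higher with PNA2, LRFN3 (0.97, limma adjusted p = 0.00656) and PTPRF (0.38, 0.0486), and 2 lower, DLG1 (-0.44, 0.00876) and DLG4 (-0.47, 0.0376), against 23.8% of all genes called.

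The genes whose profiles lay nearest were sought over the 9 libraries of set A, by the mean absolute difference between centred log2 profiles. These include siRNA and control libraries on which the 10 genes were selected, so genes with a siRNA difference of like size come out near, and the distances are a description. MYC was the nearest of all genes to LRFN4, at 0.08, followed by MATK at 0.09, where LRFN4 deviated from its own mean by 0.53. At 72 h, outside those libraries, PNA2 replicate 3 held the lowest MYC of its group (460) and the highest LRFN4 (1072). Control replicate 5 held the lowest MYC of the controls (826), with LRFN4 at 707, below the control mean of 734. A relation between MYC and LRFN4 was not tested. GPR183 was nearest to MVP (0.09) and LGALS3BP to CCR7 (0.11). TRAF3IP2 was nearest to ST8SIA4 (0.15). Of the 16 neighbours tested at 72 h with PNA2, 3 were called, against 23.8% of all genes: LGALS3BP (0.52, limma adjusted p = 0.00607), TRAF3IP2 (0.49, 0.0305) and FMNL2, a neighbour of C11orf54 (-0.55, 0.0355). PKHD1L1 was nearest to SERPINB1 (0.08), OPTN to PDGFD (0.08), MS4A7 to LRRK2 (0.17) and GPM6B to C11orf54 (0.10). PKD1L1 was nearest to CD1C (0.45) and F5 to SGK1 (0.90), genes that deviated from their own means by 1.66 and 3.16.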

How the data were processed

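The submitters' processing notes name the build GRCh38 and, with no role given, the tools HISAT2 2.2.1, HTSeq 0.11.0, DESeq2, SAMtools 1.7 and Trimmomatic; whether counting used strand is not given in the sources used here. The deposited 48 h table holds a score that is a read count adjusted per gene and library set and not divided by depth; this was read from the values, since 21877 of 61541 genes have values that are not whole and 5099 have values below 0. The sets were read from ties: among 9089 low genes, pairs of libraries of a set tied in 16.4% to 30.5% and other pairs in 0%. A pair of control columns shares the header CT-5_48H and is named by column. The deposited 72 h signal is reads divided by a size factor, from which whole reads were recovered in 100% of values (within 0.01).

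At 48 h values below 0 were set to 0, scaled by TMM (edgeR 4.0.16) and fitted as log2(value + 1) with limma 3.58.1 in R 4.3.3 (mean-variance trend, group and set, all 3 groups). At 72 h group alone was fitted. Genes needed a value of 10 or more in 4 (48 h) or 5 (72 h) libraries. P-values are two-sided and adjusted by Benjamini-Hochberg over all genes, with 0.05 as the threshold. The added 1 shrinks the differences of low genes. At 48 h the unknown offset can shrink or widen the differences of any gene, and the values set to 0 can widen them. DESeq2 1.42.0 and edgeR were run on the recovered 72 h reads. Ladders were found as the largest even step that places all libraries of a set on whole rungs within 0.01. The tests were checked on simulated data with 200 changed genes. The simulated 48 h counts had a set effect that multiplied each gene, with no added offset and no values below 0. This check therefore does not cover those features of the deposited 48 h values.

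The 10 genes and the gene groups were chosen with earlier results of these data known. Named besides them and MYC are, per group and comparison, up to 4 called genes with the largest log2 difference, and per gene its nearest profiles. Groups were chemokine receptors, NF-kB, CD1, vault, LRRK2, sialic acid, serpins, PDGF, SGK and LRFN, and markers of 5 cell classes. Positions are from GENCODE 29, which holds 58366 of the 48 h gene ids, and promoters from RefSeq.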

Additional observations from a re-analysis of the deposited data

Results flagged for a closer look

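Of 50 groups of libraries (10 genes in 5 groups), 3 held a library apart from the rest of its group by Dixon's 95% limit. Chance alone gives about 1 in 20 such groups where the libraries of a group form 1 cluster. The control and PNA2 groups at 48 h pool sets A and B, which can lie apart, so this rate need not hold for them. SGK1 in siRNA replicate 4 was 210.5 against 176.3 in the next library at 48 h, in deposited values not scaled to depth. Scaled to depth, siRNA replicates 1 to 4 held 148, 173, 190 and 177, with replicate 3 the highest. LRFN4 in PNA2 replicate 3 was 1072 against 796.8 in the next at 72 h, the library with the lowest MYC of its group. SERPINB1 in control replicate 2 was 208.3 against 266.3 in the next at 72 h, and that library had the fewest reads, 8.22 in units of 1000000. The cause of each was not tested.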

How the results depend on the processing

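Direction in siRNA was the same for all 10 genes in the 25 alternatives run, which the choice of genes on non-overlapping groups fixes and is no sign of stability; sizes differed, as given beside each gene. The siRNA count of 2438 genes became 1191 without a set term, 4559 with only the 2 groups fitted and 957 with the replicate block, and ran from 1180 to 4317 when a library was left out (1452 without control 1, 1180 without control 2, 4317 without PNA2 2, 1499, 1485 and 1412 without siRNA 1, 2 and 4). The PNA2 count at 48 h (2286) became 1011 with only the 2 groups and 850 with the replicate block, and ran from 1700 to 3032 with a library left out; at 72 h (2849) it ran from 2086 to 3333, with 2769 under the replicate block, 2837 by edgeR and 3319 by DESeq2. Numbers did not pair the libraries: deviations of same-numbered libraries correlated at -0.06 to 0.30, and 2 of 5, 2 of 4 and 1 of 4 matched best with their own number. The block drops the unnumbered controls; numbered libraries without it gave 2083 and 1747 calls, an alternative chosen after seeing the data, as was the comparison with set B controls alone. Under the block at 48 h CCR7 (0.64, limma adjusted p = 0.0548), ST8SIA4 (0.46, 0.0899) and C11orf54 (0.37, 0.11) lost their PNA2 calls and LRRK2 kept its call; without a set term CCR7, LRRK2 and ST8SIA4 lost theirs (0.0814, 0.0828 and 0.14).

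Small PNA2 differences that were not called turned sign. At 48 h MVP was at 0.13 without rescaling, 0.06 without control 4 and 0.04 without PNA2 2 (-0.20 to 0.06 with a library left out); SERPINB1 at 0.12 without rescaling and 0.09 in set A; PDGFD at 0.15 and 0.08 likewise; CD1C at 0.37 without PNA2 2 (-0.89 to 0.37); LRFN4 at -0.01 in set A, -0.09 without control 3 and -0.03 without PNA2 3. At 72 h ST8SIA4 was at -0.01 without PNA2 4; PDGFD at -0.04, -0.03 and -0.01 without control 2, PNA2 1 and PNA2 4; CD1C at 0.02 and 0.24 without control 2 and PNA2 4 (-0.73 to 0.24). The cause was not tested. Depth limits CD1C at 72 h, and the unknown offset limits every ratio at 48 h.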
